A study of Xenopus laevis with 12 samples.

Results

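The genes that encode the proteins of the cytosolic ribosome were followed across 4 tissues of the neurula of the frog Xenopus laevis. A probe set, the group of short oligonucleotides that reads 1 transcript on the array, was counted as a member when the platform annotation gave it a single gene symbol of the form rps or rpl and a number, with or without a final a, l, x or y, or one of rplp0, rplp1, rplp2 and rpsa. The copy letters L and S were ignored in the match. Of the 15491 probe sets tested, 88 were members, and they read 62 genes. The large subunit contributed 53 probe sets for 41 genes, and the small subunit 35 probe sets for 21 genes. X. laevis is an allotetraploid, and many of its genes exist as a long (L) and a short (S) homeolog, 1 from each ancestral genome. The L copy was read by 41 members, the S copy by 46 and rps9 without a letter by 1.

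The arrays held polyadenylated RNA of stage 15 embryos from 4 groups of 3 arrays each. EF is the eye field, named eye primordia in the labels and dissected together with the mesendoderm beneath it. PNP is the posterior neural plate, LE the lateral endoderm taken from the flank midway between the other regions, and the last group whole embryos, which contain all of these regions. Dissected pieces were pooled for each array, the triplicates came from different days and females, and no transgene or treatment was named for any of these groups.

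A ribosome joins a large and a small subunit, each built of ribosomal RNA and of many proteins that are mostly present once. The small subunit holds the mRNA and decodes it, and the large subunit joins amino acids and lets the new chain out through a tunnel. Ribosomal protein mRNAs are among the most abundant of growing cells. In vertebrates they begin with a terminal oligopyrimidine tract, through which growth signals control the translation of the whole class, and in X. laevis embryos they are known to be held out of translation until well after fertilization.

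The signals of the members were high. The median of their mean log2 intensities over the 12 arrays was 9.75, against 3.31 for all probe sets tested, and 76 of the 88 lay at a log2 intensity of at least 8. As background served the brightest bacterial control probe set of each array, at log2 intensities of 2.10 to 2.77. On all 12 arrays 85 members lay above it and on some arrays 3 did, while 0 lay under it on every array. One of these 3 was rpl3l.L, a copy of rpl3 known from skeletal and heart muscle in mammals, whose log2 intensities ran from 1.83 to 2.67. Its 4 tissue means lay between 1.89 and 2.23, and the whole-embryo arrays lay below all EF and PNP arrays and overlapped those of LE. It exceeded the background on 1 of 3 arrays in each region and on 0 of 3 whole-embryo arrays. The background itself was lowest on the whole-embryo arrays, at 2.10 to 2.24 against 2.26 to 2.77 elsewhere. Its part in this order was not tested.

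The tissues were recognized by their markers, with limits for LE. Compared with whole embryos, EF was higher in all 6 eye field markers and PNP in all 4 markers of the posterior neural plate (adjusted p under 0.05, limma). Of 5 endoderm markers 1 was higher in LE than in whole embryos, and their summed intensity was 439 to 534 in LE against 343.1 to 431.9 in whole embryos, 36.3 to 50.6 in EF and 27.9 to 33.0 in PNP. Epidermal markers summed to 4223 to 5203 in LE, 3937 to 4486 in whole embryos, 317.8 to 456.4 in EF and 22.4 to 30.8 in PNP. Somite muscle markers summed to 1228 to 1399 in PNP, 640.4 to 956.2 in whole embryos, 56.1 to 100.1 in EF and 30.1 to 35.0 in LE. Of these 4 markers, 2 were called higher and 1 lower in PNP than in whole embryos. PNP also exceeded whole embryos in all 3 notochord markers, with sums of 639.1 to 719.4 in PNP, 61.9 to 77.2 in whole embryos, 57.0 to 144.1 in EF and 21.8 to 29.7 in LE. The spike-in control BioB was brightest on replicate 3 of PNP and of LE, at log2 intensities of 8.82 and 8.99 against 7.58 to 8.52 elsewhere.

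Ribosomal protein transcripts differed little among the 4 tissues. Over all 4 groups, 5 of the 88 members passed limma's moderated F-test at an adjusted p under 0.05, which is 5.68%, where 39.9% of all probe sets tested passed. Without single arrays the count was 2 to 7, lowest without EF replicate 2 or PNP replicate 2. Centring of the arrays, array weights and a variance trend in eBayes gave higher counts, which are listed at the end. The share of all probe sets that passed the F-test in these other fits is not given here. The contrast with all probe sets is therefore shown for the main fit alone. The large subunit gave 4 of its 53 and the small subunit 1 of its 35. The distance between the highest and the lowest tissue mean was 0.28 on the log2 scale in the median member, or 1.22-fold, against 0.54, or 1.46-fold, for all probe sets. Only 1 member, a dim probe set of rpl35.L, spanned 2-fold or more, which was the case for 23.6% of all probe sets.

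Bright probe sets of other genes had wider ranges. The 821 non-members with a mean log2 intensity of at least 8 had a median range of 0.49, or 1.4-fold, and 44.8% of them passed the F-test. Their median residual SD was 0.16 on the log2 scale, beside 0.16 for the 76 members of that intensity. Of these members 3 passed the F-test, and their median range was 0.27. At a mean log2 intensity of at least 9.5, where the median signals were 10.13 for members and 10.11 for others, 2 of 57 members passed and 57 of 190 others did. The median ranges there were 0.25 and 0.36. These are counts and medians of the probe sets on the array and carry no test between members and others.

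**Figure D1:**
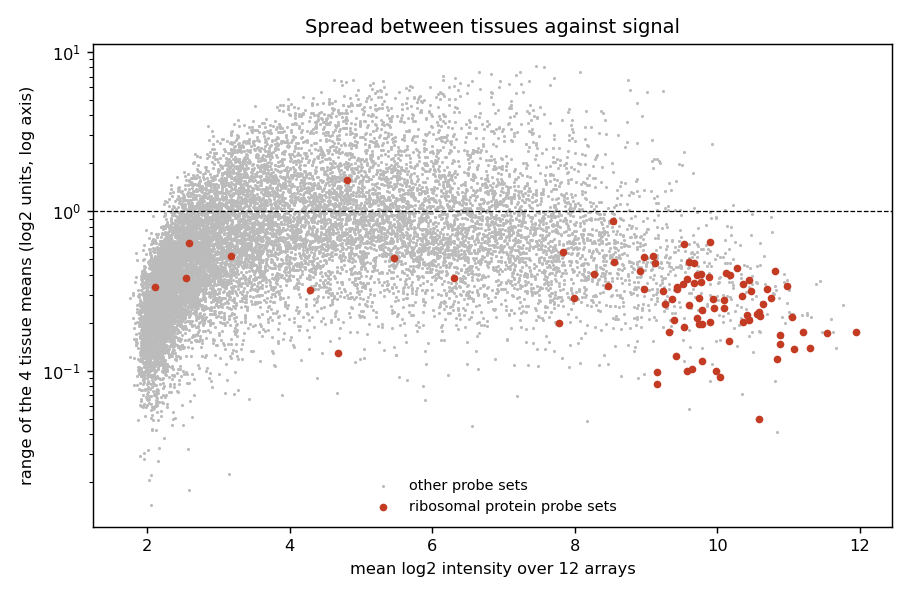
Range of the 4 tissue means (log2 units, logarithmic y axis) against the mean log2 intensity over 12 arrays for 15491 probe sets, with the 88 ribosomal protein probe sets in red and other probe sets in grey; the dashed line marks 2-fold. The members cluster at the bright end, and 1 of them lies above the line.

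The smallest ranges belonged to bright members. The 4 tissue means of rpl23a.S, whose protein sits at the exit of the tunnel, spanned 0.05 in its brighter probe set, from 10.56 in whole embryos to 10.61 in EF. Its dimmer probe set had means of 9.79 for EF, 9.43 for PNP, 9.73 for LE and 9.72 for whole embryos, and passed in 0 comparisons (adjusted p of the F-test 0.248). The means of rpl7.L spanned 0.08 and those of rps3a.L in its brighter probe set 0.09. The brighter probe sets of rpl23a.S and rps3a.L may hybridise with several transcripts. For the probe sets with these smallest ranges the adjusted p of the F-test was 0.97, 0.96 and 0.95. A p of this size does not show that the tissues were equal, but the intervals limit the difference. With a median standard error of 0.15 on the log2 scale, the 95% interval of the difference lay within 1.5-fold in either direction for 63 of 88 members between EF and whole embryos, 67 between PNP and whole embryos and 69 between LE and whole embryos. Between the regions it did so for 61 (EF and PNP), 59 (EF and LE) and 67 (PNP and LE). Of all 15491 probe sets, 5948 to 6914 met this limit in these comparisons. Of the 821 non-members with a mean log2 intensity of at least 8, 362 to 510 did.

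Against whole embryos, hardly any member passed. In EF 1 member was higher and 1 lower, beside 8.83% and 10.6% of all probe sets (limma, adjusted p under 0.05). In PNP 1 was higher and 0 were lower, beside 10.2% and 12.1%. In LE 0 were higher and 0 lower, beside 3.23% and 5.4%. An unadjusted p under 0.05 (limma) was reached upward by 2 members in EF and by 3 each in PNP and LE. Downward it was reached by 9 in EF, 2 in PNP and 3 in LE. Among all 15491 probe sets, 2791, 2884 and 1940 reached it upward, and 2233, 2661 and 2000 downward. An equal-variance t-test left 0 members for EF, 1 for PNP and 0 for LE after adjustment, from 10, 2 and 4 before it. Of all probe sets it left 820, 1087 and 85, from 4236, 4242 and 3347.

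Between the regions, all calls that involved EF were downward in the fit to all arrays, though not in every alternative setting. Against PNP, 0 members were higher in EF and 5 were lower, beside 13.8% and 9.73% of all probe sets. Against LE, 0 were higher and 8 lower, beside 14.1% and 10.7%. At an unadjusted p under 0.05 (limma), the comparison with PNP gave 1 member upward and 13 downward in EF. That with LE gave 2 upward and 14 downward. Among all 15491 probe sets, 3024 were upward and 2271 downward against PNP, and 3114 and 2277 against LE. Between PNP and LE, 1 member was higher in PNP and 0 were lower, beside 13% and 12.6%. The shares of members called lower in EF, 5.68% and 9.09%, did not exceed those of all probe sets, while the shares called higher fell short of them. Both comparisons use the same 3 EF arrays. The 8 calls against LE became 0 without LE replicate 2, 1 without LE replicate 1 and 4 without LE replicate 3. Without EF replicates 1, 2 and 3 they became 3, 2 and 5. In these fits 19.55%, 21.17%, 19.39%, 20.71%, 21.73% and 20.06% of all probe sets were called, in that order, beside 24.87% with all arrays. The 5 calls against PNP became 1 without PNP replicate 1 or 2 and 8 without PNP replicate 3. They became 3 or 2 without EF replicate 1 or 2. Of all probe sets 19.9%, 18.28%, 22.97%, 18.32% and 21.1% were called there, in that order, beside 23.54% with all arrays. Upward calls appeared in 3 settings. With quantile normalization 2 of 5 calls against PNP, those of rpl23a.S and rpl6.S, were higher in EF. Against LE 1 of 5 calls was higher without EF replicate 3, in the dimmer probe set of rpl35.L, and 1 of 7, that of rps10.L, was higher without replicate 3 of PNP and LE.

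The shift of the members as a whole was close in size to the spread between replicate arrays. The median member was lower in EF than in whole embryos by a log2 difference of -0.10, than in PNP by -0.13 and than in LE by -0.10, and 66, 66 and 64 of 88 differences were below 0. The median of all probe sets was 0.10, 0.01 and 0.03 in the same comparisons. Split by subunit, the medians were -0.12, -0.13 and -0.18 for the large and -0.08, -0.12 and -0.07 for the small subunit. For PNP and LE against whole embryos they lay between 0.01 and 0.08 in both subunits. These had no settled sign, since with 1 array left out the median over all members ran from -0.04 without PNP replicate 1 to 0.11 without whole-embryo replicate 2 for PNP, and from -0.06 without whole-embryo replicate 1 to 0.14 without whole-embryo replicate 2 for LE. The mean of EF was the lowest of the 4 for 42 of the 88 members and the highest for 5, against 17.7% and 30.2% of all probe sets. Among the 821 non-members with a mean log2 intensity of at least 8, these shares were 24.5% and 32.0%.

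Array by array, the median deviation of the members from their own overall means was -0.04, -0.18 and -0.05 in EF, 0.14, 0.05 and -0.11 in PNP, 0.03, 0.14 and -0.02 in LE, and -0.11, 0.19 and 0.00 in whole embryos. All 3 EF arrays were below 0, but the groups overlapped, and the spread between replicates was 0.11. The arrays' values are relative to other transcripts on the same array, so a change of all RNA of a cell is not visible in them. In such bulk tissue, fewer cells of a type and less RNA per cell cannot be told apart.

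**Figure D2:**
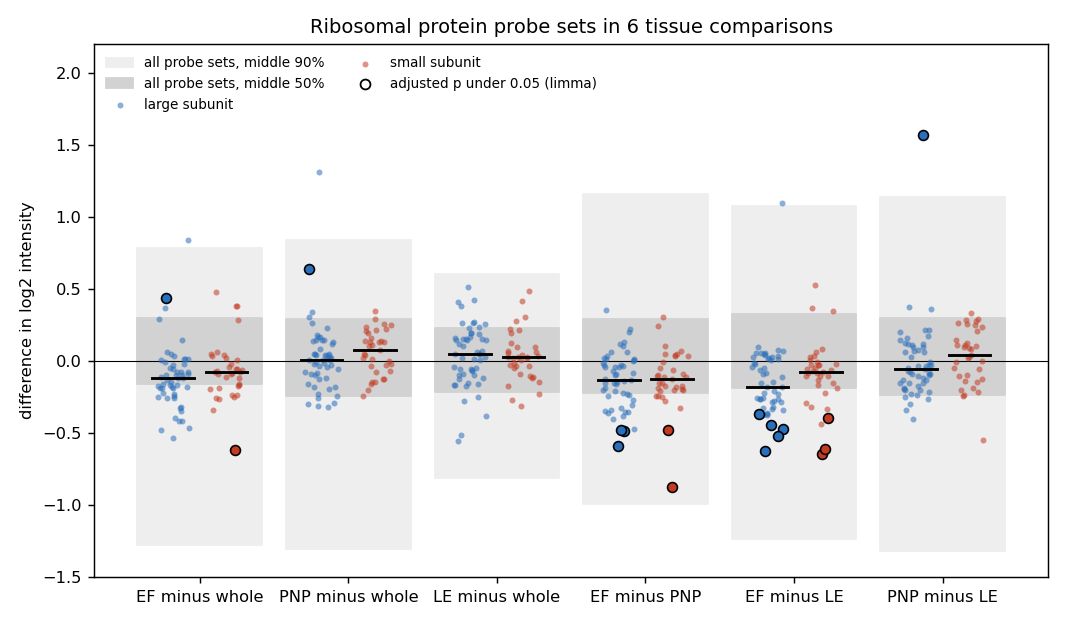
Difference in log2 intensity of each of the 88 ribosomal protein probe sets in 6 comparisons, with whole embryos marked as whole, the large subunit in blue and the small in red; black bars are medians, outlined points have an adjusted p under 0.05, and grey bands hold the middle 50% and 90% of all 15491 probe sets. All outlined points of EF minus PNP and EF minus LE lie below 0, and the medians there run from -0.07 to -0.18.

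Among small-subunit genes, rps6 differed most. It encodes the protein that S6 kinases phosphorylate when cells are stimulated to grow. The log2 intensities of rps6.L were 7.98, 8.21 and 7.84 in EF, 9.13, 8.93 and 8.60 in PNP, 8.72, 8.72 and 8.42 in LE, and 8.49, 8.85 and 8.56 in whole embryos. Every EF array lay below every other array. The difference was -0.62 ± 0.17 (SE, 3 arrays a group) from whole embryos, -0.88 ± 0.17 from PNP and -0.61 ± 0.17 from LE, or 1.54-fold, 1.83-fold and 1.53-fold lower, with adjusted p of 0.0219, 0.00229 and 0.0190 (limma). A probe set annotated to both copies, which is not a member, had means of 10.34 for EF, 10.70 for PNP, 10.49 for LE and 10.67 for whole embryos and passed in 0 comparisons (adjusted p of the F-test 0.0991).

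The L copy of rps12, a protein of the small subunit's head region, had its lowest means in EF and PNP. Its log2 intensities were 9.59, 9.40 and 9.89 in EF, 9.88, 9.76 and 9.54 in PNP, 10.27, 10.46 and 10.08 in LE, and 9.67, 10.36 and 9.88 in whole embryos. The LE arrays lay above all EF and PNP arrays, and the whole-embryo arrays overlapped all regions. EF minus LE was -0.65 ± 0.19 on the log2 scale (1.56-fold lower in EF, adjusted p = 0.0285, limma). PNP minus LE was -0.55 ± 0.19 and did not pass (adjusted p = 0.0570).

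A further pair of small-subunit members passed in 1 comparison each. For rps18.L, whose protein lies in the head of the subunit, the log2 intensities were 9.65, 9.16 and 9.51 in EF and 9.94, 10.08 and 9.72 in PNP. No EF array reached the lowest PNP array, and the difference was -0.48 ± 0.15 (1.39-fold lower, adjusted p = 0.0348, limma). For rps23.L, whose protein lies by the decoding center, they were 10.07, 9.93 and 10.00 in EF and 10.40, 10.51 and 10.30 in LE. The difference was -0.40 ± 0.13 (1.32-fold lower, adjusted p = 0.0371), and here too the groups did not overlap.

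In the large subunit, rpl24.L was the bright member with the largest difference. Its protein forms part of a bridge to the small subunit. The log2 intensities were 8.77, 9.16 and 9.39 in EF, 9.80, 9.77 and 9.54 in PNP, 9.76, 9.87 and 9.57 in LE, and 9.5, 9.78 and 9.48 in whole embryos. All 3 EF arrays lay below the other 9. EF differed by -0.59 ± 0.17 from PNP and by -0.63 ± 0.17 from LE (adjusted p of 0.0222 and 0.0162, limma), and by -0.48 ± 0.17 from whole embryos, which did not pass (adjusted p = 0.0670).

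Other large-subunit members were called lower in EF in 1 comparison each. For rpl39.L, whose protein lines the wall of the exit tunnel, the log2 intensities were 9.26, 9.34 and 9.46 in EF and 10.02, 9.90 and 9.58 in PNP. The difference was -0.48 ± 0.13 (adjusted p = 0.0197), and against LE it was -0.38 ± 0.13 (adjusted p = 0.0595). For rpl31.S, at the tunnel exit, EF had 9.02, 8.71 and 8.78 and LE had 9.35, 9.31 and 9.27, a difference of -0.47 ± 0.15 (adjusted p = 0.0340). The groups did not overlap in either case, and the steps were 1.4-fold and 1.39-fold.

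Also lower in EF than in LE were rpl37.S and rpl38.L. The intensities of rpl37.S were 9.91, 9.94 and 10.22 in EF and 10.47, 10.49 and 10.44 in LE, with a difference of -0.44 ± 0.13 (adjusted p = 0.0249, limma). Mutation of the mouse gene Rpl38 is known to alter the axial skeleton and the translation of Hox mRNAs. The brighter rpl38.L probe set read 10.38, 10.12 and 10.17 in EF and 10.54, 10.60 and 10.64 in LE, a difference of -0.37 ± 0.12 (adjusted p = 0.0344). Its dimmer probe set, at log2 intensities of 4.34 to 5.12, gave -0.02 for the same comparison.

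The probe sets of rpl35.L, whose protein lies at the tunnel exit, disagreed. The brighter read 8.64, 8.76 and 8.95 in EF, 9.58, 9.28 and 8.96 in PNP, and 9.31, 9.36 and 9.24 in LE, so EF was below both regions on every array. Its differences were -0.49 ± 0.16 from PNP and -0.52 ± 0.16 from LE (adjusted p of 0.0494 and 0.0350, limma), and the first of these calls was lost in 15 of 24 alternative settings. The dimmer read 5.99, 5.11 and 4.43 in EF, 6.07, 5.58 and 5.29 in PNP, 4.63, 3.54 and 4.08 in LE, and 4.17, 3.57 and 5.26 in whole embryos. There PNP lay above LE on every array, by 1.57 ± 0.45 or 2.96-fold (adjusted p = 0.0232), and EF minus LE was 1.10, opposite in sign to the brighter probe set.

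The only calls of a member above whole embryos came from 1 probe set near the background. The dimmer probe set of rpl34.L read 2.8, 2.71 and 2.42 in EF, 2.75, 2.79 and 2.99 in PNP, 2.59, 2.50 and 2.8 in LE, and 2.21, 2.14 and 2.27 in whole embryos. It was above whole embryos by 0.43 ± 0.14 in EF and by 0.63 ± 0.14 in PNP (adjusted p of 0.0449 and 0.00570, limma), with signals above the bacterial ceiling on 2 of 3 EF arrays and 2 of 3 whole-embryo arrays. The call in EF was lost in 16 of 23 alternative settings, and that in PNP in 0. The brighter rpl34.L probe set, at 9.21 to 9.80, passed in 0 comparisons (adjusted p of the F-test 0.231). Changes of so dim a probe set can depend on the background step of the processing.

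**Figure D3:**
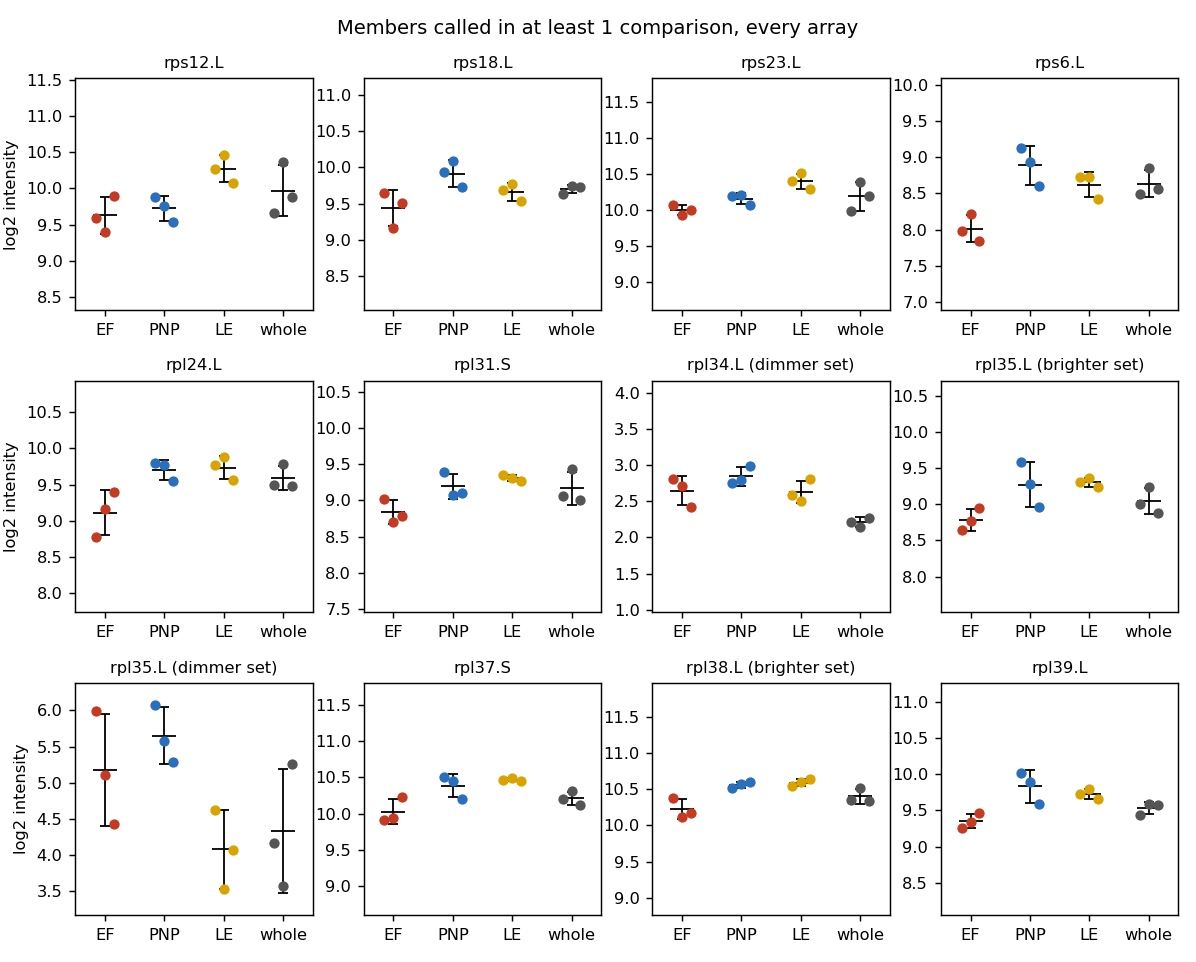
Log2 intensity on every array for the 12 member probe sets with an adjusted p under 0.05 in at least 1 of 6 comparisons; colored points are arrays (whole stands for whole embryos), black lines and bars are means ± SD of 3 arrays, and every panel spans the same height in log2 units. In 10 panels EF sits low, and the dimmer probe sets of rpl34.L and rpl35.L show other patterns.

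Stalk proteins and variants passed in 0 comparisons. The stalk of the large subunit, which recruits elongation factors, is built on RPLP0 by copies of RPLP1 and RPLP2. The adjusted p of the F-test was 0.469 for rplp0.S, 0.260 for rplp1.L, 0.219 for rplp2.L and 0.212 for rplp2.S. The largest difference was that of rplp1.L, whose log2 intensities were 8.56, 8.70 and 8.85 in EF and 8.81, 9.37 and 9.19 in whole embryos. These groups overlapped (EF minus whole embryos -0.42, adjusted p = 0.166). A probe set annotated to rplp1.L together with a further gene, which is not a member, gave -0.59 for EF minus whole embryos and -0.54 for EF minus LE and was called in 2 comparisons. For rpsa.S, which encodes a small-subunit protein also known as the laminin receptor, the intensities ran from 9.11 to 9.51 over all arrays (adjusted p of the F-test 0.360).

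The protein of rpl3 reaches into the center where peptide bonds are made. Both probe sets of rpl3.L had lower means in EF and LE than in whole embryos, and neither passed in the fit to all arrays. The brighter read 8.62, 8.88 and 8.87 in EF, 8.84, 9.0 and 8.38 in LE, and 9.29, 9.31 and 9.17 in whole embryos, so whole embryos lay above every EF and LE array. The differences were -0.47 and -0.52 (adjusted p of 0.0761 and 0.0815). The dimmer probe set gave -0.53 and -0.55. In some alternative settings rpl3.L was called lower in EF than in whole embryos. These were a variance trend in eBayes, a fit of the groups compared only, and the omission of LE replicate 3 with or without PNP replicate 3. It was called lower in LE than in whole embryos with the trend and without LE replicate 2.

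Of the 13 gene copies read by more than 1 member, 8 had the same sign of EF minus LE in all their probe sets, and the median spread between probe sets of a copy was 0.14 on the log2 scale. The 3 probe sets of rpl35a.S, whose protein is changed in some patients with Diamond-Blackfan anemia, lay between -0.34 and -0.36 and passed in none. A further 17 probe sets carried several symbols with a ribosomal protein gene among them, often both copies of it, and were not members. Of these 0 passed the F-test (members 5 of 88), and 10 had their lowest mean in EF.

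The L and S copies of a gene were compared through the difference of their log2 intensities on each array, since levels of different probe sets are not comparable. Both copies were read for 8 member genes, each copy from its brightest probe set. The L minus S difference changed among the tissues for 1 of the 8, beside 41.6% of the 1017 genes on the array with both copies (moderated F-test, adjusted p under 0.05, limma). The changing gene was rps12. Its L minus S difference was -0.63, -0.56 and -0.42 in EF, -0.29, -0.52 and -0.53 in PNP, -0.03, 0.08 and -0.13 in LE, and 0.25, 0.11 and -0.10 in whole embryos. EF and PNP lay below LE and whole embryos on every array (adjusted p of the F-test 0.0212).

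The shift of rps12 amounted to -0.62 ± 0.17 between EF and whole embryos, -0.53 ± 0.17 between PNP and whole embryos and -0.51 ± 0.17 between EF and LE (adjusted p of 0.0293, 0.0426 and 0.0445, limma). Neither copy passed the F-test or a comparison with whole embryos on its own. The L copy differed from whole embryos by -0.34 in EF and -0.24 in PNP (adjusted p of 0.247 and 0.392, limma). The adjusted p of its F-test was 0.0611. The S copy had higher means than in whole embryos, by 0.28 in EF and 0.29 in PNP. Its intensities were 10.22, 9.95 and 10.32 in EF, 10.17, 10.27 and 10.07 in PNP, 10.30, 10.38 and 10.21 in LE, and 9.41, 10.25 and 9.98 in whole embryos, and all groups overlapped (adjusted p of the F-test 0.302). Epidermal and endodermal markers, given above as summed intensities, also separate EF and PNP from LE and whole embryos, and PNP held the highest sums of somite muscle and notochord markers. Their part in this pattern was not tested.

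For rps6 the L minus S difference was 0.46, 0.50 and -0.02 in EF, below all 9 other arrays, which ran from 0.68 to 1.24. The F-test just missed the threshold (adjusted p = 0.0503), while the shift between EF and PNP was -0.68 ± 0.20 (adjusted p = 0.0235). The S copy of rps6 had tissue means of 7.70 for EF, 7.90 for PNP, 7.77 for LE and 7.77 for whole embryos in the brighter probe set used here. Its dimmer probe set had its highest mean in EF, at 6.57 against 6.26, 6.22 and 6.18, and passed in 0 comparisons (EF minus whole embryos 0.38, adjusted p = 0.299), but was called higher in EF than in whole embryos without whole-embryo replicate 2. The remaining 6 genes did not pass. Among them were rpl5, whose protein escorts 5S ribosomal RNA, and rps3, whose protein stands at the entry of the mRNA channel. The 95% interval of EF minus whole embryos was -0.48 to 0.30 for rpl5, -0.23 to 0.55 for rps3, -0.53 to 0.27 for rpl4 and -0.68 to 0.07 for rplp2. It was -0.37 to 0.42 for rps3a, each copy of which was read by a probe set that may hybridise with several transcripts. That of rpl28, whose L copy had a dim probe set (mean log2 intensity 5.47), reached from -0.22 to 1.11. For LE minus whole embryos the interval of rpl28 was 0.02 to 1.35 (adjusted p = 0.184, limma). For PNP minus whole embryos that of rplp2 was -0.81 to -0.06 (adjusted p = 0.0922).

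**Figure D4:**
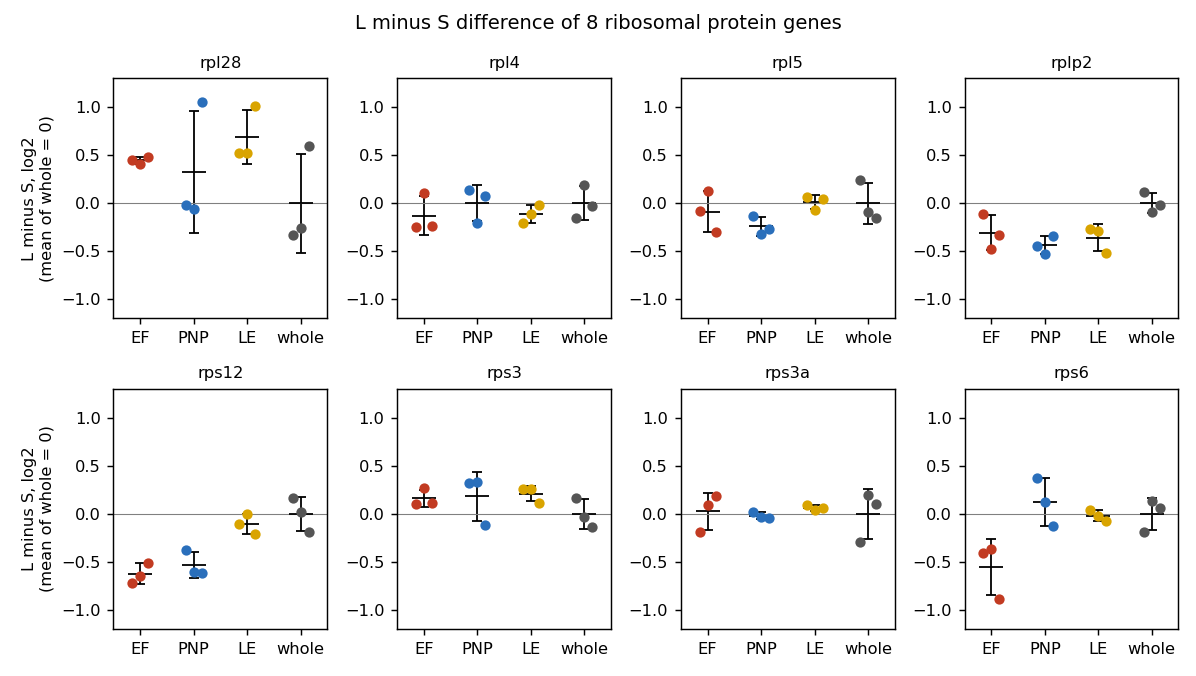
L minus S difference in log2 intensity, less its mean in whole embryos, on every array for the 8 ribosomal protein genes with a probe set for each copy; points are arrays (whole stands for whole embryos), and black lines and bars are means ± SD of 3 arrays. For rps12 the EF and PNP points lie below those of LE and whole embryos, and for rps6 the EF points lie below all others.

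Neighboring parts of the translation machinery were counted with 1 probe set per gene, the brightest. On that footing 3 of 62 cytosolic ribosomal protein genes passed the F-test over the 4 tissues. Of 36 genes for mitochondrial ribosomal proteins, which serve the separate ribosomes of that organelle, 9 passed, as did 11 of 41 initiation and elongation factors and 29 of 78 factors of ribosome biogenesis. All of these shares, up to 37.2%, were below the share of all probe sets.

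In EF, most calls among the genes of ribosome assembly were upward. Against whole embryos 8 of the 78 were higher and 0 lower, against PNP 20 were higher and 4 lower, and against LE 19 were higher and 1 lower, where 8.83%, 13.8% and 14.1% of all probe sets were higher and 10.6%, 9.73% and 10.7% lower. Their median differences were 0.24, 0.19 and 0.27, where those of the 62 ribosomal protein genes were -0.13, -0.13 and -0.17. The medians come from the same 3 EF arrays. An example is sbds.S, whose protein frees the large subunit for joining, at means of 5.42 for EF, 3.94 for PNP, 3.70 for LE and 4.08 for whole embryos. Another is polr1b.L, a subunit of RNA polymerase I, at 6.27, 5.68, 4.97 and 5.55. Both were called higher in EF in all 3 comparisons.

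Of the 14 regulators measured, EF was higher in 2 and lower in 0 against whole embryos, higher in 3 and lower in 1 against PNP, and higher in 4 and lower in 0 against LE, beside 8.83%, 13.8% and 14.1% higher and 10.6%, 9.73% and 10.7% lower among all probe sets. PNP was higher in 1 of the 14 regulators and lower in 5 against whole embryos, beside 10.2% and 12.1% of all probe sets. Against whole embryos, PNP and LE, EF did not pass in 12, 10 and 10 of the 14. The regulators named next have their highest mean in EF and do not stand for all 14. The list includes mycn.L and mycl.S, members of the Myc family of growth-promoting transcription factors. The mean log2 intensity of mycn.L was 5.93 for EF, 3.07 for PNP, 4.39 for LE and 4.63 for whole embryos, and that of mycl.S was 7.44, 6.09, 6.41 and 6.59. For larp1.L, which in mammals binds the oligopyrimidine tract of ribosomal protein mRNAs, the means were 7.65, 6.79, 7.17 and 7.60, and EF exceeded PNP by 0.86 and LE by 0.47. Of the 41 initiation and elongation factors, 4 were higher and 1 lower in EF against whole embryos. Against PNP 5 were higher and 4 lower, and against LE 5 and 2, beside the same shares of all probe sets. The elongation factor gene eef1a1o.S was lower in EF than in whole embryos, PNP and LE, by -0.51, -0.43 and -0.58.

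The member rule left out 3 measured genes whose products belong to or resemble ribosomal proteins, and all 3 passed the F-test. The gene fau.L, which encodes ribosomal protein S30 fused to a ubiquitin-like part, was lower in EF than in PNP by -0.53 and than in LE by -0.46. The rpl22 paralog rpl22l1.L was higher in LE than in whole embryos by 0.59, with EF minus LE at -0.61 and PNP minus LE at -0.69. The member rpl22.S, by comparison, had means of 7.87 for EF, 7.96 for PNP, 8.16 for LE and 8.0 for whole embryos. The rpl7 paralog rpl7l1.L was higher in EF than in PNP by 0.46 and than in LE by 0.40, while rpl7.L had 1 of the 3 smallest ranges among members.

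**Figure D5:**
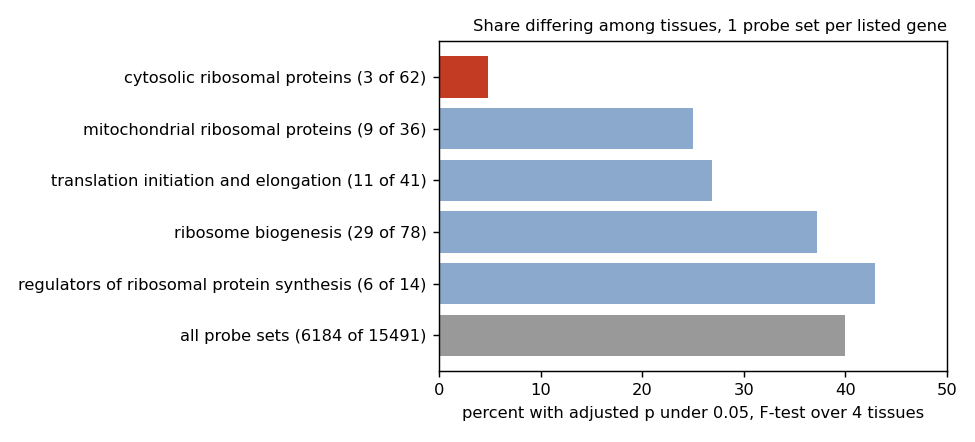
Percent of genes with an adjusted p under 0.05 in the F-test over 4 tissues, for 5 gene lists at 1 probe set per gene (counts in parentheses) and for all probe sets tested. The bar of the cytosolic ribosomal proteins stands at 3 of 62, and those of the other lists lie between 25% and 42.9%.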

How the data were processed

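RNA of EF, PNP, LE and whole embryos was measured on 12 Affymetrix X. laevis arrays. According to the study's methods, the authors' scans went through RMA in GeneSpring GX. They deposited linear signal intensities, 1 column for each array, with 0 further columns of sample values. The floor of these intensities is low for RMA, and the background step that gave it is not given in the sources used here. Log2 of the intensities was used as such, with nothing added, filtered or rescaled. The 120 control probe sets among 15611 were left out. In the platform annotation 9304 probe sets had 1 symbol, 195 had several and 5992 had none. All 88 members matched the RefSeq gene table by gene identifier, and 16 of them carry names of probe sets that may hybridise with several transcripts. Copies of a gene can also cross-hybridise.

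The groups were compared in R 4.3.3 by lmFit and eBayes of limma 3.58.1, fitted to all 12 arrays, in 6 comparisons and an F-test, with Benjamini-Hochberg adjustment over 15491 probe sets. A probe set was called at an adjusted p under 0.05, with no fold limit. The L minus S difference was fitted in the same way over 1017 genes. The scripts were tested on simulated data. That there were 3 arrays a group limits the precision. Members and gene lists were chosen with earlier results of these data known.

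Named members were drawn from the largest changes in each comparison (up to 5 each way), genes whose copies differed, the stalk genes, rpsa and variants, and the 3 largest and 3 smallest ranges. Others, among them rpl3, rpl35a, the rps6 copies and list genes, were chosen after their values were seen. Alternatives were other scalings, a replicate block, array weights, an equal-variance t-test, a variance trend in eBayes and fits of single pairs of groups. Also run were filters on dim or shared probe sets, 1 probe set per copy, a fold of at least 1.5 and the omission of single arrays. The joint omission of PNP and LE replicate 3 was chosen after seeing the data. Figures used matplotlib.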

Additional observations from a re-analysis of the deposited data

Results flagged for a closer look

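The L and S copies of rps12 differed in their pattern over the 4 tissues, by a test of the difference itself (limma's F-test on L minus S, adjusted p = 0.0212 over 1017 genes). The mean L minus S difference in log2 intensity was -0.54 for EF and -0.45 for PNP, against -0.02 for LE and 0.09 for whole embryos.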

How the results depend on the processing

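The counts of members called moved by over 1.5 times under several settings, and no called member changed sign in any setting run. The counts follow in the order named. With a fold of at least 1.5 the calls were 1, 2 and 3 for EF against whole embryos, PNP and LE. With quantile normalization they were 1, 3, 4 and 2 for EF and PNP against whole embryos, EF against LE and PNP against LE, and 5 for EF against PNP, of which 3 were lower in EF and 3 were also called without it. Of all probe sets 20.41%, 22.98%, 25.01%, 27.46% and 24.03% were called there, in that order. Arrays centred on their median gave 3, 1, 8 and 9 for PNP and LE against whole embryos, EF against PNP and the F-test, and centring on the 75th percentile gave 4, 2, 13 and 11. In the 2-group comparisons named, centring on the median called 31.69%, 11.02% and 23.31% of all probe sets. Centring on the 75th percentile called 33.82%, 12.05% and 23.96%. These centrings raised the median of all probe sets for PNP against whole embryos from 0.07 to 0.22 and 0.26. The t-test left 0, 0 and 3 for EF against whole embryos, PNP and LE, beside 5.293%, 8.676% and 13.96% of all probe sets. eBayes with a trend called 5, 3 and 1 for EF, PNP and LE against whole embryos, 10 for EF against PNP, 3 for PNP against LE, 15 by the F-test and 2 pairs of copies. Array weights gave 1 for EF against whole embryos, 2 for PNP against LE, 9 by the F-test and 2 pairs of copies. Of all probe sets, the trend called 19.7%, 24.2%, 9.55%, 23.5% and 26.6% in the comparisons named for it. The weights called 19.3% and 27.6%. Without dim probe sets 1 call was left for EF against whole embryos, beside 20.6% of all probe sets kept. With 1 probe set per gene copy the counts were 1, 0, 0 and 3 for EF and PNP against whole embryos, PNP against LE and the F-test. Of all probe sets kept there, 22.5%, 23.5% and 28.4% were called in these comparisons. Fits of the groups compared only gave 1 for EF against PNP and 2 for PNP against LE, beside 21.0% and 25.4%. The mean of the probe sets of a copy gave 2 pairs. With PNP and LE replicate 3 both left out, chosen after seeing the data, the counts were 4, 2 and 0 for EF and PNP against whole embryos and PNP against LE. Of all probe sets 19.95%, 20.4% and 20.9% were called there. Shares of all probe sets are not given for the fold limit, the F-test counts or the pairs of copies in these settings. The causes of the moved counts were not tested.

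Leaving out single arrays gave 0 to 4, 1 to 3 and 0 to 1 calls for EF, PNP and LE against whole embryos. It gave 1 to 8 for EF against PNP, 0 to 9 for EF against LE and 0 to 2 for PNP against LE. The F-test gave 2 to 7, and 1 to 2 pairs of copies passed. Of all probe sets, these fits called 14.39% to 20.04%, 17.6% to 21.92% and 4.622% to 9.496% for EF, PNP and LE against whole embryos. They called 18.28% to 24.03% for EF against PNP, 19.39% to 25.56% for EF against LE and 19.81% to 26.1% for PNP against LE. The median member difference of EF stayed below 0 against whole embryos, PNP and LE in every setting run, from -0.20 to -0.02, -0.24 to -0.06 and -0.18 to -0.05. The lowest values against PNP and LE came from centring on the 75th percentile. There the median of all probe sets was also below 0, at -0.11 and -0.05. The calls of single members, counted over all their alternatives, held 293 times and were lost 112 times. That of rps6.L between EF and PNP held in 23 of 24 settings. Its calls in EF against whole embryos and LE were lost in 4 and 5 of 24. The call of rps18.L between EF and PNP was lost in 8 of 24. Between EF and LE, that of rpl38.L was lost in 10 of 24, that of rps23.L in 8, and those of rpl31.S and rpl37.S in 7 each. The L minus S difference of rps12 passed in every setting run, and that of rps6 passed in 5. Arrays of the same replicate number did not deviate together (median correlation -0.03 over 18 pairs, and 0.02 over 36 pairs of other numbers), so the numbers were not taken as pairs. The replicate block gave 1, 2 and 3 calls for EF and PNP against whole embryos and EF against PNP, beside 2, 1 and 5 without it. It left 6 calls for EF against LE, 4 by the F-test and 1 pair of copies. Of all probe sets the block called 18.4%, 20.9%, 22.7% and 24.1% in these 2-group comparisons, in the order named. The number of arrays limits how small a difference could be called.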
